A study of Mus musculus with 6 samples.

Results

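The genes described here are 8 transcription factors that hepatocytes use to set and keep their identity: *Onecut1*, *Onecut2*, *Foxa1*, *Foxa2*, *Foxa3*, *Cebpa*, *Cebpb* and *Prox1*. They were read in liver RNA of 3 Lkb1KOlivad mice (KO) and 3 control mice (WT), with 1 Affymetrix gene array per mouse, and they are 8 of the 19938 genes to which a probe set could be assigned. A gene was taken where the platform annotation gave its probe set that 1 symbol, and all 8 genes had exactly 1 probe set each. The set was chosen by the measured difference between KO and WT livers on these same arrays, with *Onecut1* as the gene that stood out and the others as its companions in hepatocytes. The KO and WT values of the 8 genes are therefore given as a description, with intervals and without a p-value.

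The KO mice were Lkb1fl/fl;TTR-CreTam animals, in which tamoxifen activates a Cre recombinase that is driven by the transthyretin promoter and so acts in hepatocytes. The WT mice were Lkb1fl/fl animals without the Cre transgene, so both groups carried the floxed alleles, and the labels call all 6 mice female. According to the paper, mutants and controls alike received tamoxifen, and both the floxed and the Cre line had an FVB/N background. The array livers came from fasted mice according to the study. For most of its animals the methods give 2 injections of 1.5 mg tamoxifen at 8 to 12 weeks of age and livers taken 15 days later, either after 18 h of fasting or after refeeding, while the array labels themselves state neither age nor day. Lkb1, encoded by *Stk11*, is the kinase that activates Ampk and related kinases. Since bulk liver was measured, fewer cells of a type and less RNA per cell cannot be told apart.

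The deletion was visible on every array. *Stk11* (probe set 10364683) had log2 RMA signals of 6.52, 6.42 and 6.48 in KO livers B253, B304 and B305, against 8.24, 8.13 and 7.96 in WT livers B256, B267 and B302. The groups were far apart, with a difference of -1.64 on the log2 scale (SE 0.12, adjusted p = 0.00705 from limma with Benjamini-Hochberg adjustment over all genes). *Stk11* was the 1 gene called of 19938, or 0.00502%. Array medians lay between 5.03 and 5.08. The mouse labels begin with B2 or B3 without saying what this stands for, and differences are also given within each series: B2 holds 1 KO and 2 WT mice, B3 holds 2 KO mice and 1 WT mouse.

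Onecut proteins, once named hepatocyte nuclear factor 6 and its relatives, carry a cut domain and a homeodomain and control bile duct formation, glucose metabolism and bile acid synthesis in liver. Foxa proteins are pioneer factors that open chromatin at liver genes and are needed for the liver to form. Cebpa and Cebpb are leucine zipper proteins, the one tied to metabolic genes of the resting hepatocyte and the other also to the acute phase and to regeneration, and Prox1 is a homeodomain protein of hepatocytes and of lymphatic endothelium.

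*Onecut1* had the largest difference of the 8 genes. Its probe set 10587082 gave signals of 7.02, 7.44 and 8.43 in KO livers B253, B304 and B305, and of 9.01, 9.02 and 9.73 in WT livers B256, B267 and B302. All 3 KO livers lay below all 3 WT livers, but KO liver B305 stood closer to the lowest WT liver than to KO liver B253. The mean was 7.63 ± 0.72 in KO livers and 9.25 ± 0.41 in WT livers (SD, n = 3 each). The difference was -1.62 on the log2 scale (SE 0.34, 95% interval -2.40 to -0.84), a KO signal 0.325 times the WT signal (interval 0.189 to 0.558). Ranked by how far the KO mean lay below the WT mean, *Onecut1* was number 3 of 19938 genes, behind *Serpina4-ps1* at -1.65 and *Stk11* at -1.64 and ahead of *Zyg11a* at -1.38 and *Myc* at -1.34. The 3 KO livers spread over 1.41 on the log2 scale in *Onecut1* and over 0.104 in *Stk11*, so the livers with almost the same *Stk11* signal differed widely in *Onecut1*.

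The difference in *Onecut1* had the same sign in both series of mice, with -1.99 in B2 and -1.79 in B3, and was -1.89 with the series as a block. It stayed between -2.02, without KO mouse B305, and -1.32, without KO mouse B253, when any 1 mouse was left out. The gene lies at chr9:74861921-74889648 in the mouse assembly GRCm38.p6. Among the neighbouring genes *Wdr72*, *Gm16551*, *Fam214a* and *Arpp19*, chosen after values were seen, the KO and WT groups overlapped in every case. The closest, *Gm16551* at 9.05 kb, differed by -0.34 (SE 0.18), and *Fam214a* at 63.2 kb by 0.15 (SE 0.28).

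**Figure D1:**
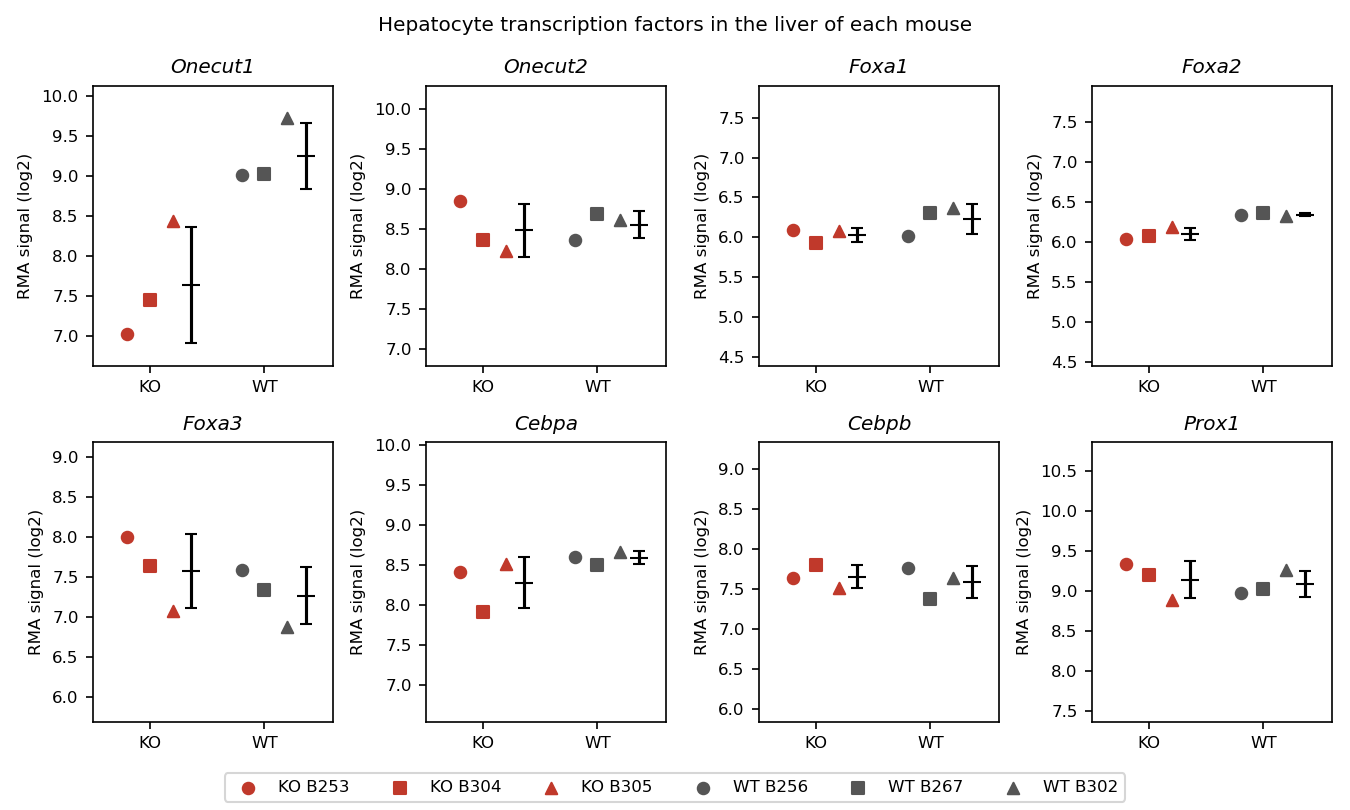
RMA signal (log2) of the 8 transcription factors in each mouse, KO in red left of WT in grey, with 1 symbol per mouse and the mean with its SD in black at the right of each group. Every panel spans the same height, so that *Onecut1*, with KO livers between 7.02 and 8.43 and WT livers between 9.01 and 9.73, can be compared with the much smaller shifts of the other genes.

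*Onecut2*, the close relative that shares the DNA-binding domains of *Onecut1* and can act in its place during liver development, did not show that difference. Its probe set 10456248 gave 8.85, 8.36 and 8.23 in KO livers B253, B304 and B305, and 8.36, 8.68 and 8.61 in WT livers B256, B267 and B302. The groups overlapped, with the highest and the lowest value both in KO livers. The difference was -0.07 (SE 0.18, 95% interval -0.47 to 0.33), so a change in *Onecut2* of the size seen in *Onecut1* lay outside its interval. Within the series the sign turned, with 0.33 in B2 and -0.31 in B3. The third member of the family, *Onecut3*, was 5.06, 5.06 and 4.81 in KO livers and 5.08, 5.19 and 5.15 in WT livers. The groups did not overlap, but the difference was -0.16 (SE 0.12, 95% interval -0.43 to 0.11). These signals are close to 4.81, the 95th percentile of the mean signals of 1015 olfactory receptor genes, which were taken as silent in liver.

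The 3 Foxa genes did not move as 1 group. *Foxa2*, which also takes part in the fasting response of liver, had signals of 6.04, 6.07 and 6.18 in KO livers B253, B304 and B305, and of 6.34, 6.36 and 6.32 in WT livers B256, B267 and B302 (probe set 10488374). It was the other gene of the 8 whose groups did not overlap, and the 3 WT values lay within 0.0397 of each other. The difference was small, -0.24 (SE 0.11, 95% interval -0.49 to 0.0011, or -0.37 to -0.12 with the variance of *Foxa2* alone), or a KO signal 0.845 times the WT signal, with -0.31 in series B2 and -0.19 in B3.

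*Foxa1*, which is partly redundant with *Foxa2* in liver development, had signals of 6.09, 5.93 and 6.08 in KO livers and of 6.02, 6.31 and 6.36 in WT livers (probe set 10400504). WT liver B256 lay between the KO livers, so the groups overlapped. The difference was -0.20 (SE 0.13, 95% interval -0.49 to 0.10), with -0.07 in series B2 and -0.36 in B3.

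*Foxa3*, the Foxa gene with a role in adult liver glucose metabolism under fasting, ran the other way. Its probe set 10560431 gave 8.001, 7.64 and 7.08 in KO livers B253, B304 and B305, and 7.59, 7.34 and 6.88 in WT livers B256, B267 and B302. The groups overlapped over all 6 mice, while within each series every KO liver was above every WT liver. The pooled difference was 0.30 (SE 0.25, 95% interval -0.27 to 0.88), and it was 0.53 in series B2, 0.48 in B3 and 0.51 with the series as a block (SE 0.17, 95% interval 0.11 to 0.91). Without KO mouse B253 it was 0.09, and without WT mouse B302 it was 0.11.

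The promoter windows of *Onecut1* and *Foxa2* are shown because these are the 2 genes of the 8 whose KO and WT livers did not overlap, and because Onecut1 is known to bind the *Foxa2* promoter. Each is the run of 250 bases before the start of the gene, from RefSeq on GRCm38.p6, given 5′ to 3′ on the strand of the gene. That of *Onecut1* is chr9:74861671-74861920 on the plus strand and that of *Foxa2* is chr2:148046970-148047219 on the minus strand. Capitals mark a match to the Onecut motif ATCAAT, which reads ATTGAT here because it lies on the opposite strand.
Onecut1: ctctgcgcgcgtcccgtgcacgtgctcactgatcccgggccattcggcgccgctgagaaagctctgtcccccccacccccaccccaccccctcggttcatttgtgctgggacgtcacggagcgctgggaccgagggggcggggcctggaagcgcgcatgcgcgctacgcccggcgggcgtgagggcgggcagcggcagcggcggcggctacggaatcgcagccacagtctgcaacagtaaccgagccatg
Foxa2: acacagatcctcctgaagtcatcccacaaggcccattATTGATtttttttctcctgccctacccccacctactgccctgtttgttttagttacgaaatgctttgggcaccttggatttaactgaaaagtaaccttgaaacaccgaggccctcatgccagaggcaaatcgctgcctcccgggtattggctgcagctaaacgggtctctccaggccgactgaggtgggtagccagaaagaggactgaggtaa
The *Onecut1* window had a GC content of 71.6% and that of *Foxa2* of 50.8%, against a median of 52.4% over 32851 windows of 27025 genes. The single match in *Foxa2* lies 213 bases before the start, and the *Onecut1* window held no match to any motif searched.

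Windows of 7 of the 8 genes, 10 in all since some genes have several starts, were searched on both strands for 5 motifs. Of the Onecut motifs, ATCGAT, which reads the same on both strands, occurred in 0 of the 10 windows and in 0.728% of all windows, and ATCAAT occurred in 1, that of *Foxa2*, and in 6.72% of all windows. The Foxa motif TGTTTAC occurred in 1 window, of *Foxa1*, and in 3.17% of all, and TGTTTGC in 1 window, of *Prox1*, and in 4.30% of all. The Cebp motif TTGCNNAA, which can share its first letters with the end of TGTTTGC, occurred in 0 of the 10 and in 9.56% of all windows. These are matches of letters in a short window and do not show binding or its absence.

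*Cebpa*, which drives metabolic genes and restrains growth in hepatocytes, had signals of 8.41, 7.91 and 8.52 in KO livers B253, B304 and B305, and of 8.61, 8.50 and 8.66 in WT livers B256, B267 and B302 (probe set 10552140). KO liver B304 stood below all others, KO liver B305 lay just above WT liver B267, and the groups overlapped. The difference was -0.31 (SE 0.17, 95% interval -0.69 to 0.07), with -0.14 in series B2 and -0.45 in B3. Over all 6 mice it was nearly equal in size to the 0.30 of *Foxa3*, while under the series block *Cebpa* stood at -0.30 and *Foxa3* at 0.51.

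*Cebpb*, the family member linked to inflammation, regeneration and gluconeogenesis, was 7.64, 7.80 and 7.52 in KO livers and 7.76, 7.37 and 7.64 in WT livers (probe set 10478890). The highest value was in a KO liver and the lowest in a WT liver, but the others were mixed. The difference was 0.06 (SE 0.14, 95% interval -0.26 to 0.38), with 0.07 in series B2 and 0.02 in B3.

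Hepatocytes need *Prox1* to migrate as the liver forms, and it acts as a corepressor of bile acid and lipid genes in the adult. Its signals were 9.33, 9.20 and 8.89 in KO livers and 8.97, 9.02 and 9.27 in WT livers (probe set 10361023). The KO livers held both the highest and the lowest value. The difference was 0.05 (SE 0.15, 95% interval -0.29 to 0.40), with 0.34 in series B2 and -0.22 in B3. *Prox1* also marks lymphatic endothelium, and 7 markers of those cells were measured. Their mean signals were 5.58 to 5.79 in KO livers and 5.74 to 5.82 in WT livers. The median difference was -0.13, or -0.06 with the series as a block, with 5 lower and 2 higher in KO livers. *Lyve1* is also in the sinusoidal list below and *Reln* in the stellate list, so the 7 do not read lymphatic cells alone. The part of lymphatic cells in the *Prox1* signal was not tested.

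**Figure D2:**
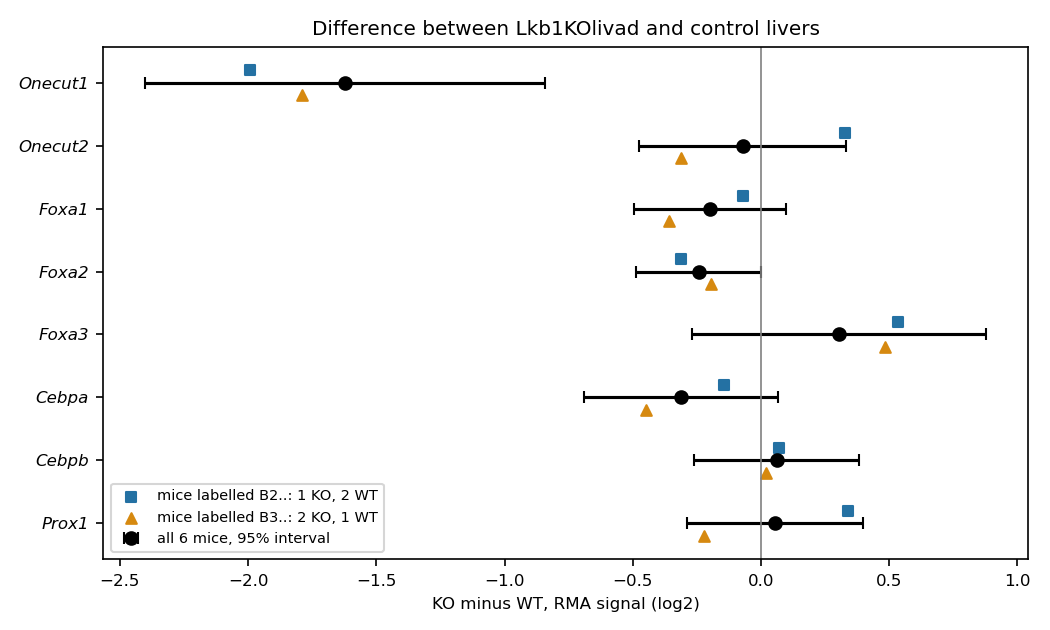
KO minus WT in RMA signal (log2) for the 8 transcription factors: black points with the 95% limma interval over all 6 mice, blue squares within the mice labelled B2, orange triangles within the mice labelled B3. *Onecut1* stands alone near -1.62, *Foxa3* is above 0 in both series, and *Onecut2* and *Prox1* change sign between the series.

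Over the 8 genes, KO livers lay all below WT livers in 2 and all above in 0, where this held for 3.7% and 3.46% of all genes. As the genes were chosen on this contrast, the counts are given without a reading. In 5 genes the KO mean was lower and in 3 it was higher. The median difference was -0.13, and -0.07 over the 7 genes without *Onecut1*, against 0.0049 over all genes. The KO livers spread more widely than the WT livers in 6 of the 8 genes.

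Patterns across the 6 arrays are described next by Pearson's r with *Onecut1*, which contains the difference between the groups as well as the spread within them. Since the arrays come from 6 livers of 2 groups, no p-value is given. Removing the group means, as done below, leaves any difference between series B2 and B3 in r. With the series as a block, the SE of the KO minus WT difference fell from 0.34 to 0.25 for *Onecut1*. For *Foxa3* it fell from 0.25 to 0.17. *Foxa2* followed *Onecut1* most closely of the other 7 genes, with r = 0.94, and still with 0.74 after the group means were removed. Its SD over the 6 arrays was only 0.14, so its r rests on small differences. Of the 7 genes, only *Foxa3*, with an SD of 0.41, reached the minimum of 0.3 asked of all other genes below. *Foxa3* ran opposite, with r = -0.80, and with -0.97 after the group means were removed, and in both groups the liver with the lowest *Onecut1* had the highest *Foxa3*. *Cebpa* had r = 0.70 and *Foxa1* r = 0.68, and *Onecut2*, *Cebpb* and *Prox1* lay between -0.15 and -0.36.

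Among all 2318 genes with an SD of at least 0.3 over the arrays, the 5 most like *Onecut1* were *Phgdh* (r = 0.993), *Cish* (0.985), *Man1c1* (0.957), *Snord73b* (0.951) and *Senp3* (0.940). *Phgdh*, the first enzyme of serine synthesis, had signals of 5.39, 5.43 and 5.77 in KO livers B253, B304 and B305, and of 6.03, 6.05 and 6.27 in WT livers B256, B267 and B302. It placed the 6 livers in the same order as *Onecut1* did, and after removal of the group means, but not of the series, r was 0.983. *Cish*, a feedback inhibitor of cytokine receptors that growth hormone induces through Stat5, was 5.20, 5.16 and 5.98 in KO livers and 6.54, 6.57 and 6.92 in WT livers. In each of these 5 genes all KO livers lay below all WT livers, as in 3.7% of all genes, and KO liver B305 was the highest of its group. *Onecut1* has both traits itself, so picking genes by their r with it favours them, and they are given without a reading.

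The 5 genes that ran most opposite were *Dnajb9* (r = -0.975), *Mtmr7* (-0.970), *F2rl2* (-0.952), *Grb7* (-0.945) and *Cyp3a13* (-0.929). *Dnajb9*, a chaperone of the endoplasmic reticulum that is induced by unfolded proteins, was 9.18, 8.69 and 8.39 in KO livers and 8.03, 7.95 and 7.82 in WT livers. All KO livers lay above all WT livers in *Dnajb9*, *F2rl2*, *Grb7* and *Cyp3a13*, and the groups overlapped in *Mtmr7*. Over all genes 3.46% had all KO livers above all WT livers. KO liver B305 had the lowest value of its group in all 5. Picking genes by their r with *Onecut1* favours both patterns here too.

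**Figure D3:**
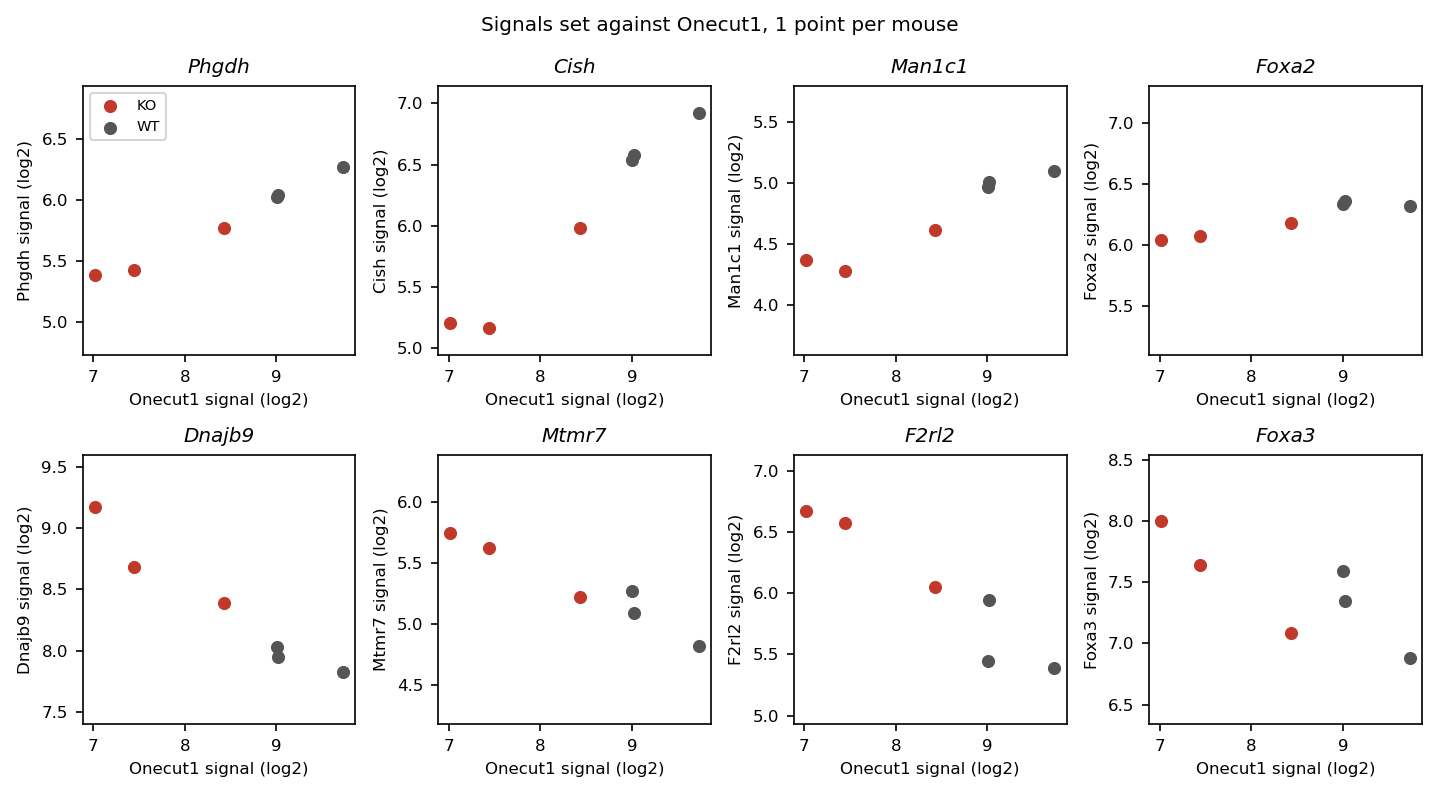
RMA signal (log2) of 8 genes against that of *Onecut1*, 1 point per mouse, KO in red and WT in grey: the 3 genes most like *Onecut1* and *Foxa2* above, the 3 most opposite and *Foxa3* below. Every vertical axis spans 2.2 on the log2 scale, so the flat slope of *Foxa2* beside the steep one of *Cish* shows that a high r does not mean a shift of the same size.

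Genes that Onecut1 is known to bind or control were looked at next, to see how they stood in livers with less of its RNA. This list and those below were chosen with earlier results of these data known, so their counts are given without a reading. Of 11 measured genes that are not among the 8 factors, 9 were higher and 2 lower in KO livers, with a median difference of 0.12 against 0.0049 over all genes. None passed the adjusted threshold in limma (0 of 11), 2 were higher at an unadjusted p under 0.05, where 1.51% of all genes were lower and 1.52% higher by that rule, and the methods' t-test gave 0 before adjustment. With the series as a block the median was 0.20, against -0.0014 over all genes. *Cyp8b1*, the sterol hydroxylase that sets the ratio of bile acids, was 9.84, 9.18 and 9.47 in KO livers B253, B304 and B305, and 9.24, 8.46 and 8.62 in WT livers B256, B267 and B302. Its groups overlapped in 1 place, where KO liver B304 lay just under WT liver B256, and the difference was 0.72 (SE 0.23, adjusted p = 1.0 from limma). *G6pc*, the last enzyme of glucose release, was 11.5, 11.0 and 10.7 in KO livers and 10.3, 10.6 and 10.6 in WT livers, a difference of 0.56 (SE 0.20, adjusted p = 1.0 from limma) without overlap. The difference in *G6pc* was 1.02 in series B2 and 0.23 in B3. *Igfbp1* differed by 0.35 (SE 0.36), *Tat* by 0.17 (SE 0.17) and *Afp* by 0.12 (SE 0.15), all with overlapping groups.

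Genes that Foxa factors are known to bind or control numbered 17, of which 15 were higher and 2 lower, with a median of 0.05, or 0.11 with the series as a block. The medians of all genes were 0.0049 and -0.0014 in that order. The list shares genes with that of Onecut1, among them *G6pc*, *Igfbp1*, *Tat* and *Afp*, so the counts of both lists are not independent. In limma 0 passed the adjusted threshold and 1, *G6pc*, was higher at the unadjusted one, where 1.51% of all genes were lower and 1.52% higher. By the methods' t-test 0 passed before adjustment. *Abcb11*, the bile salt export pump, differed by 0.14 (SE 0.19). Apart from *G6pc* the list's differences lay between -0.10 and the 0.35 of *Igfbp1*.

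Of 18 measured genes known to be bound or controlled by Cebpa or Cebpb, 13 were higher and 5 lower, with a median of 0.14 against 0.0049 over all genes. This list too shares genes with those of Onecut1 and Foxa factors, among them *G6pc* and *Tat*. In limma 0 passed the adjusted threshold and 3 were higher at the unadjusted one, where 1.51% of all genes were lower and 1.52% higher. By the methods' t-test 0 passed before adjustment. The 3 genes by limma were *Saa2* and *Saa1*, acute phase proteins, and *G6pc*. In each of them all KO livers lay above all WT livers, which held for 3.46% of all genes. *Saa2* was 11.0, 9.56 and 9.81 in KO livers B253, B304 and B305, and 6.50, 8.42 and 8.71 in WT livers B256, B267 and B302, a difference of 2.24 (SE 0.57, adjusted p = 1.0 from limma). The difference in *Saa2* was 3.54 in series B2, which holds both the highest KO and the lowest WT value, and 0.97 in B3. *Saa1* and *Saa2* are near-identical genes, so their probes may read both. *Otc*, of the urea cycle, differed by 0.36 (SE 0.18) and *Cyp2d9* by 0.25 (SE 0.15).

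Growth hormone is known to raise *Onecut1* in rodent liver, and 11 genes that respond to growth hormone were measured. In limma 0 passed the adjusted threshold, and 2 were lower and 1 higher at the unadjusted one, where 1.51% of all genes were lower and 1.52% higher. By the methods' t-test 1 was lower and 0 higher before adjustment. The median was -0.03. *Cish* differed by -1.23 (SE 0.22, adjusted p = 0.684 from limma), with -1.35 in each series. *Socs2*, another feedback inhibitor of that pathway, was 6.50, 7.33 and 8.39 in KO livers B253, B304 and B305, and 8.999, 8.41 and 8.43 in WT livers B256, B267 and B302, a difference of -1.21 (SE 0.41, adjusted p = 1.0 from limma). *Bcl6*, a repressor that growth hormone lowers, was 7.58, 8.12 and 6.08 in KO livers and 5.79, 6.52 and 5.82 in WT livers, a difference of 1.22 (SE 0.46, adjusted p = 1.0 from limma). KO liver B305 lay nearest to the WT livers in *Socs2* and *Cish* and fell among them in *Bcl6*. *Igfals* differed by -0.24 (SE 0.18) and *Stat5b* by 0.16 (SE 0.12). *Igf1* differed by -0.13 (SE 0.11) and *Ghr* by 0.10 (SE 0.29), both with overlapping groups. Of the 11 genes, 6 had a lower and 5 a higher mean in KO livers. Whether growth hormone had a part in the *Onecut1* values was not tested.

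**Figure D4:**
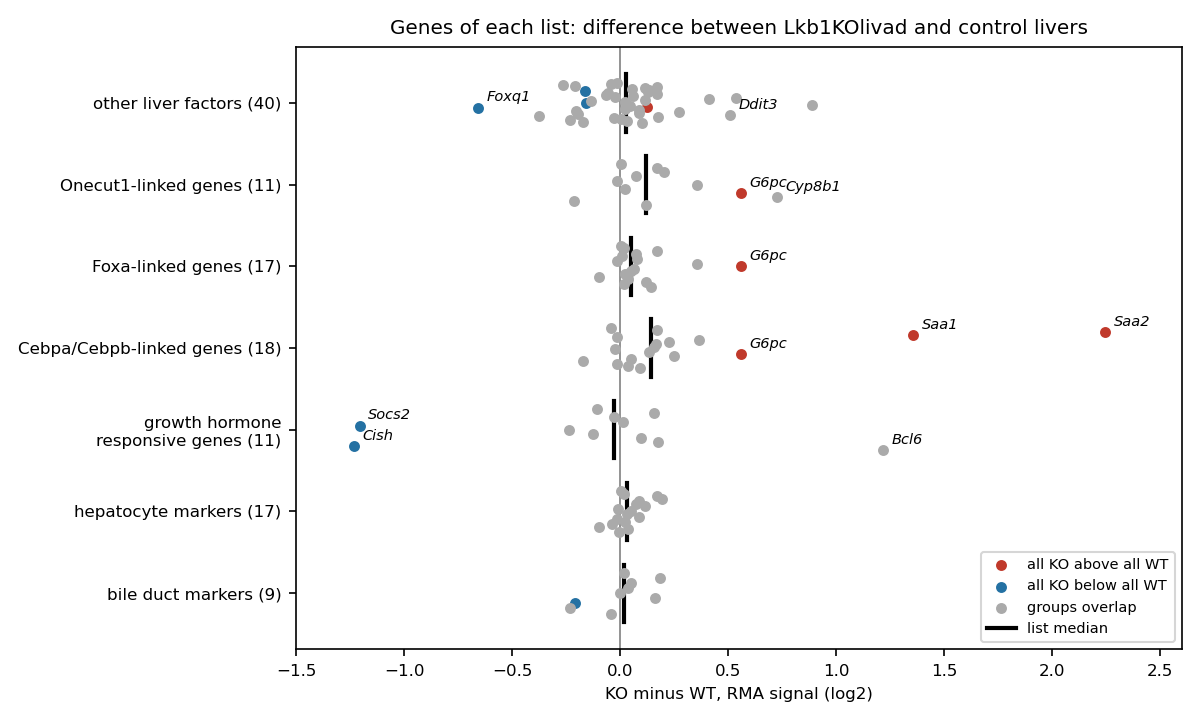
KO minus WT in RMA signal (log2) for the genes of 7 lists, without the 8 factors, 1 point per gene, the number measured standing in brackets. Red points have all KO livers above all WT livers, blue points all below, grey points overlap, black bars are list medians, and genes at an unadjusted p under 0.05 are named: most points lie within 0.5 of 0, with *Saa2* at 2.24 and *Cish* at -1.23 at the ends.

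Among 40 other liver transcription factors, 23 were higher and 17 lower, with a median difference of 0.03. In limma 0 passed the adjusted threshold, and 1 was lower and 1 higher at the unadjusted one, where 1.51% of all genes were lower and 1.52% higher. By the methods' t-test 2 were lower and 0 higher before adjustment. KO livers lay all below WT livers in 3 of the 40 and all above in 1, beside 3.7% and 3.46% of all genes. *Foxq1*, a forkhead factor, was 5.56, 5.53 and 5.68 in KO livers B253, B304 and B305, and 6.34, 5.91 and 6.49 in WT livers B256, B267 and B302, a difference of -0.66 (SE 0.16, adjusted p = 1.0 from limma). *Ddit3*, a Cebp relative of the stress response, differed by 0.51 (SE 0.21, adjusted p = 1.0 from limma), but by 1.06 in series B2 and -0.03 in B3. *Hhex*, a homeodomain factor of early liver, was 9.24, 9.65 and 9.33 in KO livers and 7.53, 9.48 and 8.54 in WT livers, so that its difference of 0.89 (SE 0.41) came with a WT spread of 0.98 (SD). *Dbp*, of the clock, differed by -0.38 (SE 0.21) and *Foxj2* by -0.20 (SE 0.13).

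Markers of hepatocytes and of the other cells of liver were read on the same arrays. The 17 measured hepatocyte markers had a mean signal of 11.7 to 11.96 in KO livers and of 11.6 to 11.9 in WT livers, with a median difference of 0.03, or 0.07 with the series as a block, and 0 of 17 passed the unadjusted threshold in limma. Bile duct cells, which also express *Onecut1*, had 9 measured markers with mean signals of 4.44 to 4.58 in KO livers and of 4.48 to 4.55 in WT livers, 0 of them at the unadjusted threshold. These means lay below 4.81, the 95th percentile of the olfactory receptor genes taken as silent, so they say little about bile duct cells. Of 12 stellate cell and fibroblast markers, 12 had a lower mean in KO livers, with a median of -0.25, or -0.17 with the series as a block. Of these, *Lrat* at -0.43 (SE 0.14) and *Rgs5* at -0.54 (SE 0.23) passed the unadjusted threshold while 0 passed the adjusted one. Over all genes 1.51% were lower and 1.52% higher at the unadjusted threshold. The mean signal of the 12 was 5.99 to 6.24 in KO livers and 6.23 to 6.44 in WT livers. The medians were -0.17 for sinusoidal endothelial, -0.16 for Kupffer cell, 0.05 for blood and lymphocyte and -0.04 for pancreas markers, and with the series as a block they were -0.09, -0.02, 0.01 and -0.06 in that order. At the unadjusted threshold stood 2 blood and lymphocyte markers, *Cd79a* at 0.42 (SE 0.16) and *Nkg7* at -0.54 (SE 0.23), and 0 of the other 3 lists. The mean signals of *Cd79a*, 4.11 in KO and 3.69 in WT livers, also lay below 4.81. So did the KO mean of *Nkg7*, 4.68, while its WT livers B256, B267 and B302 had 4.91, 5.80 and 4.97. The pancreas markers lay below 4.81 too, with mean signals of 4.45 to 4.53 in KO livers and of 4.48 to 4.66 in WT livers. The part of these cells in the values of the 8 factors was not tested.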

How the data were processed

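The values used were log2 RMA signals that the authors deposited, 1 per probe set and array. RMA subtracts background, brings the arrays to 1 scale and combines the probes of a probe set. The labels list RMA and Partek as tools, whereas Expression Console and BRB-ArrayTools appear in the methods, and no version was found in either. The labelling kits also differ between the labels and the methods, and the methods name a later array generation than the platform annotation that named the probe sets. Of 35556 probe sets, 21789 had 1 gene symbol, 1621 had several and 12146 had none. Where a gene had several probe sets (999 genes), that of highest mean stood for it, which gave 19938 genes.

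KO and WT livers were compared by limma 3.58.1 in R 4.3.3 (a linear model with eBayes moderation, two-sided). P-values were adjusted by Benjamini-Hochberg over every gene, and an adjusted p under 0.05 counted as called. Figures were drawn with matplotlib 3.10.9. The procedure was tested on simulated data. An exact permutation test of 3 against 3 mice cannot give a p below 0.1 and was not used. The arrays carry no detection calls, and their number limits the precision. The p-values set the group difference against the spread between individual mice, which limma moderates by that of all genes.

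The 8 genes and the lists were chosen with earlier results of these data known. Named are the 8 genes, *Stk11*, up to 5 genes of a list with the smallest p, and the 5 genes most and least like *Onecut1* among those with an SD of at least 0.3 on the log2 scale. *Serpina4-ps1*, *Zyg11a*, *Myc*, *Onecut3*, *Igf1*, *Ghr*, the neighbours of *Onecut1* and the *Hnf4a* pair were named after their values were seen. The alternatives were quantile normalization, median centring, a filter on dim genes, averaged probe sets, robust eBayes with a trend, weights per array, the methods' t-test, the series of mouse labels as a block, and each mouse left out in turn. The methods name that t-test for the study in general and not for the arrays.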

Additional observations from a re-analysis of the deposited data

How the results depend on the processing

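The differences of *Onecut1*, *Foxa1*, *Foxa2*, *Foxa3* and *Cebpa* had the same sign in all 14 alternatives, with *Onecut1* between -2.02 and -1.32, while those of *Onecut2*, *Cebpb* and *Prox1* changed sign in 2 each. The number of genes called, 1 over all mice, was 0 by the methods' t-test, which before adjustment gave 342 lower and 277 higher genes, the higher ones against 303 by limma. It ranged between 0 and 1 when 1 mouse was left out, and was 0 whichever mouse other than WT mouse B302 was left out, while the difference of *Stk11* stayed between -1.71 and -1.57 over all alternatives. At an unadjusted p under 0.05, 589 genes were higher and 412 lower with the series as a block, 521 were higher without WT mouse B256, 199 were higher and 189 lower without KO mouse B304, and the cause was not tested. The lists named in the text held 0 called genes in every alternative run. The median difference of all genes was 0.0049 as deposited and 0.0181 with median centring. No paired analysis was run. The paper describes its controls as littermates of the mutants, but no litter was found for the mice of the arrays. With 3 mice a group, the 95% intervals of the 7 factors other than *Onecut1* include 0 in limma without a block, which does not show that they were unchanged. The interval of *Foxa3* lies above 0 with the series as a block (0.11 to 0.91), and that of *Foxa2* below 0 with the pooled variance of the methods' t-test (-0.37 to -0.12).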

Other observations

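*Hnf4a*, the nuclear receptor that works beside Onecut1 and Foxa factors in hepatocytes, was 10.0, 9.66 and 9.58 in KO livers B253, B304 and B305, and 10.1, 9.43 and 9.68 in WT livers B256, B267 and B302, a difference of 0.02 (SE 0.19). Its antisense neighbour *Hnf4aos* was 6.31, 6.32 and 6.39 in KO livers and 7.36, 7.29 and 7.03 in WT livers. All KO livers lay below all WT livers in *Hnf4aos*, with a difference of -0.88 (SE 0.12, adjusted p = 0.352 from limma), of -1.02 in series B2 and of -0.67 in B3. The pair was picked after its values were seen.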
